A study of Mus musculus with 7 samples.

Results

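The 10 genes described here encode the machinery by which a cell shows peptides on MHC class II molecules: the transactivator Ciita, the invariant chain Cd74, the classical chains H2-Aa, H2-Ab1 and H2-Eb1, the peptide editors H2-DMa, H2-DMb1 and H2-DMb2, and the DO chains H2-Oa and H2-Ob. They were chosen by name, and all 10 were found among the 27179 genes of the count tables. RNA was sequenced from 7 cell lines, each grown from an end-stage Eµ-Myc lymphoma of a male C57BL/6 mouse, and every line carried the Eµ-Myc transgene, which drives Myc from the immunoglobulin heavy chain enhancer and gives B lineage tumours. Of these, 3 lines were Smchd1 wild-type and 4 were homozygous for a Smchd1 loss-of-function allele (Smchd1 null, called a gene trap in the sample labels and MD1 in the study's methods). Smchd1 is a chromatin protein involved in X inactivation and in silencing of clustered autosomal genes. Each line stands for 1 tumour in culture, with no normal B cells beside it, and the labels do not say whether any lines arose from related tumours. Total counts per library ran from 3626853 in wild-type replicate 1 to 7519549 in Smchd1 null replicate 4, so that 3 counts corresponded to between 0.399 and 0.827 CPM (counts per 1000000 counts of the library).

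Class II molecules are made by B cells, dendritic cells and macrophages. The α and β chains assemble with the invariant chain, which fills the groove and directs the complex to endosomes; there the invariant chain is cut, and H2-DM exchanges its remaining fragment for peptides from ingested protein. H2-O, found mostly in B cells, restrains H2-DM. Transcription of most class II genes is switched on by Ciita, which does not bind DNA itself. It docks on the RFX, CREB and NF-Y factors that sit on a promoter module, the X1, X2 and Y boxes. C57BL/6 mice have a defective H2-Ea gene, so their H2-Eb1 chain has no I-E partner.

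The promoter module is shown first, for the genes with a matched promoter window, which Cd74, Ciita and H2-Ab1 lacked. RefSeq windows from 250 bases before to 50 after the gene start (GRCm38.p6, the mm10 build used for alignment) were matched for 7 of the 10 genes (8 windows). For 6 of these a stretch of 60 bases around the Y box is given 5′ to 3′ on the gene's own strand, with capitals marking the searched letters AGNAAC (core of the X1 box), TGACG (core of X2) and ATTGG (Y box).
H2-Aa (chr17:34287857-34287916, minus strand): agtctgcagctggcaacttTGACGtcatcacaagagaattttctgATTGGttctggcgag
H2-Eb1 (chr17:34305763-34305822, plus strand): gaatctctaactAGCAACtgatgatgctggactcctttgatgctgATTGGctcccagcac
H2-DMb1 (chr17:34153085-34153144, plus strand): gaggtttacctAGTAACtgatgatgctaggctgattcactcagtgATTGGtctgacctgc
H2-DMb2 (chr17:34145114-34145173, plus strand): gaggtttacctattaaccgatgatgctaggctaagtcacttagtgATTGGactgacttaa
H2-Oa (chr17:34092291-34092350, plus strand): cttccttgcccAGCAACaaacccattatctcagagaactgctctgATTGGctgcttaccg
H2-Ob (chr17:34238803-34238862, plus strand): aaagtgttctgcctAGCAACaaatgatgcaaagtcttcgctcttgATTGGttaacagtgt
Searched on both strands, ATTGG was present in 7 of the 8 windows, against 37.41% of all 32851 windows of that length, and AGNAAC in 5 of the 8, against 48.05%. AGNAAC followed by ATTGG on the same strand at a spacing of 25 to 45 bases was present in 4 of the 8, those of H2-Eb1 (33 bases between their first letters), H2-DMb1 (34), H2-Oa (34) and H2-Ob (31), and in 1.145% of all windows. H2-DMa, not printed, had an ATTGG in 1 of its 2 windows. That window held AGNAAC on the opposite strand only, and the other window held neither. The core TGACG was present in 1 of the 8, against 20.81%, and its longer form TGCGTCA, present in 2.116% of all windows, in none of the 8. H2-Ob, which had the narrowest range over lines of the 10, thus carried the same pair of letters at a similar spacing as H2-Eb1, whose range over lines was the widest of the genes counted in every library. A match of letters is a description of the sequence and not of binding.

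Smchd1 itself followed the labels, at 248, 230.3 and 219 CPM in the wild-type libraries and 25.9, 22.7, 28.6 and 28.7 CPM in the null libraries (log2 fold change -3.17, FDR 2.0e-05 in limma voom with sample weights). Some libraries stood apart. Wild-type replicate 1 was the only library of batch 1 and the only single-end one, and it was given a sample weight of 0.245. Wild-type replicates 2 and 3 were more alike than any other pair (r = 0.991 across genes, against at most 0.959 for other pairs) but differed by more than sampling noise. Smchd1 null replicate 4 had a weight of 0.251. The summed B cell marker list was 512.5 CPM and the pre-B list 22.5 CPM in that library, against 1285 to 2320 and 222 to 335 CPM in the others. It was also the only library with more than 0.321 CPM on the T cell list (56.2 CPM, of which Cd5 made 55.7). What part these differences have in the class II levels was not tested. The macrophage and dendritic cell marker list summed to between 1.46 and 33.1 CPM in the 7 libraries, with Clec9a and Siglech at 0 in all of them. In the 2 libraries with the most class II RNA it was 11.4 CPM (null replicate 3) and 1.46 CPM (null replicate 4). Cd3e, Cd8a and Trac of the T cell list were also at 0 in all 7. In bulk RNA, a smaller share of expressing cells and less RNA per cell cannot be told apart, and this holds for every level below.

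Together the 10 genes ranged widely between lines of the same genotype. Their summed level was 287, 64.1 and 83.5 CPM in wild-type replicates 1 to 3 and 81.3, 189.9, 1421 and 359.6 CPM in null replicates 1 to 4. The order of libraries crossed the genotypes: wild-type replicates 2 and 3 and null replicate 1 were low, while wild-type replicate 1 lay among the higher null libraries. Null replicate 3 was highest for 9 of the 10 genes, and null replicate 4 for H2-Oa. The SD of log2(CPM + 0.5) over the 7 libraries lay at or above the 90th percentile of all 12303 genes tested for 7 of the 10 genes. It was 2.63 for H2-Eb1 and 0.54 for H2-Ob, against a median of 0.37.

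**Figure D1:**
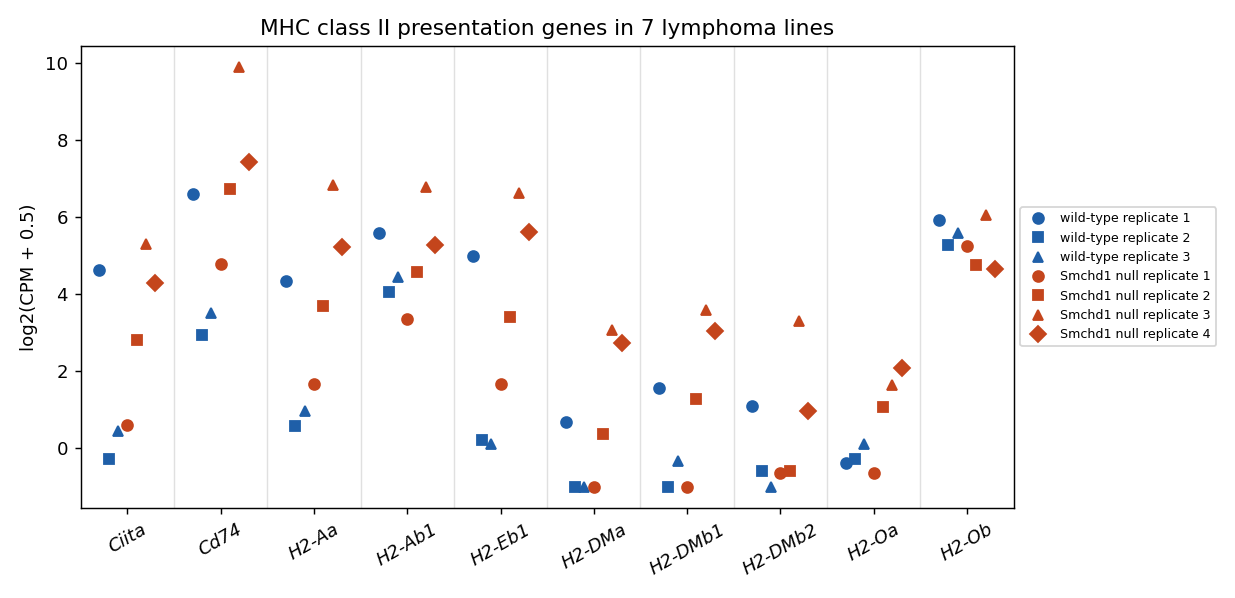
Level of each of the 10 class II genes in the 7 libraries, as log2(CPM + 0.5), where 0 counts stand at -1. Each point is 1 library, with wild-type and Smchd1 null lines marked apart. Cd74 spans 7.22 to 960.4 CPM, H2-Ob only 24.7 to 66.9 CPM, and the groups overlap for every gene.

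Ciita, the transactivator on chromosome 16 (10480014-10531064, plus strand), was measured at 24.3, 0.328 and 0.879 CPM in the wild-type libraries, from 88, 2 and 6 counts. The null libraries had 1.04, 6.59, 38.9 and 19.0 CPM, from 7, 41, 252 and 143 counts. Wild-type replicate 1 thus exceeded 3 of the 4 null libraries, and the other wild-type lines held a handful of reads. Null replicate 3 was 119-fold above wild-type replicate 2, with an exact 95% interval of 32.5 to 985 for counting error alone. The group means were 8.49 ± 13.66 (SD, n = 3) and 16.4 ± 16.8 CPM (SD, n = 4), each with an SD larger than its mean. Exons of Ciita overlap Dexi on the opposite strand over 329 bases (3.45% of its exonic length), and the few reads of the low lines cannot be assigned by strand.

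Cd74, the invariant chain on chromosome 18 (60803849-60812652, plus strand), was the most abundant of the 10 per length, with a median of 68.4 RPKM over the 7 libraries. It reached 96.8, 7.22 and 10.99 CPM in the wild-type libraries and 27.0, 106, 960.4 and 173 CPM in the null libraries. Of the null libraries, 3 exceeded every wild-type library, and null replicate 1 lay below wild-type replicate 1. The group means were 38.3 ± 50.7 (SD, n = 3) and 317 ± 433 CPM (SD, n = 4). The highest library was 133-fold above the lowest (exact 95% interval 99.0 to 183). Within the wild-type group the range was 13.4-fold and within the null group 35.6-fold.

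H2-Aa, the α chain of I-A (chromosome 17, 34282744-34287823, minus strand), was also lowest in wild-type replicates 2 and 3 and highest in null replicates 3 and 4. It stood at 19.9, 0.984 and 1.47 CPM in the wild-type libraries and at 2.67, 12.5, 115 and 37.1 CPM in the null libraries. H2-Eb1, a β chain left without its partner in this strain (34305867-34316674, plus strand), stood at 31.4, 0.656 and 0.586 CPM in the wild-type libraries and at 2.67, 10.1, 97.9 and 48.5 CPM in the null libraries. For both, null replicates 3 and 4 exceeded every wild-type library, and wild-type replicates 2 and 3 were below every null library. The highest library exceeded the lowest 117-fold for H2-Aa (exact 95% interval 53.4 to 319) and 167-fold for H2-Eb1 (64.9 to 615).

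H2-Ab1, the β chain that pairs with H2-Aa (34263227-34269418, plus strand), did not fall to such low levels. Its values were 48.0, 16.2 and 21.3 CPM in the wild-type libraries and 9.77, 23.3, 110.3 and 38.4 CPM in the null libraries. The groups overlapped almost wholly, with only null replicate 3 above every wild-type library. The range was 11.3-fold (exact 95% interval 8.76 to 14.8), and the lowest library was null replicate 1, not a wild-type one.

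The balance of the I-A chains therefore differed between lines. Of the counts on H2-Aa and H2-Ab1 together, H2-Aa held 29.3% (exact Clopper-Pearson 95% interval 23.7 to 35.4), 5.71% (2.13 to 12.02) and 6.45% (3.14 to 11.5) in the wild-type libraries. In the null libraries it held 21.4% (13.2 to 31.7), 35.0% (28.7 to 41.6), 51.0% (48.4 to 53.6) and 49.1% (44.9 to 53.3). Per length, the ratio of H2-Aa to H2-Ab1 was near 1 only where class II RNA was plentiful, at 1.16 and 1.08 in null replicates 3 and 4, and was 0.0676 and 0.077 in wild-type replicates 2 and 3. Cd74 and H2-Aa kept a closer proportion, with a per-length ratio of Cd74 to H2-Aa between 3.52 and 7.64 in the 7 libraries. These intervals cover counting error only.

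**Figure D2:**
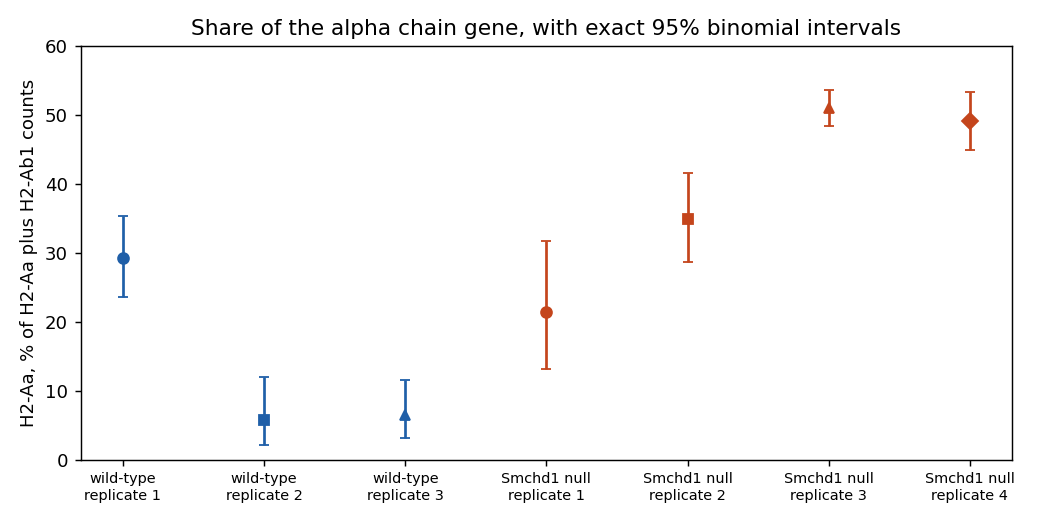
Share of H2-Aa in the counts of H2-Aa plus H2-Ab1 (percent) in each of the 7 libraries, with exact 95% binomial intervals. Wild-type replicates 2 and 3 sit near 6%, and null replicates 3 and 4 near 50%.

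The H2-DM genes, whose products load peptide, were close to the limit of detection outside a few lines. H2-DMa (34119693-34139101, plus strand) had 4, 0 and 0 counts in the wild-type libraries and 0, 5, 51 and 46 counts in the null libraries, which gave 7.88 and 6.12 CPM in null replicates 3 and 4. H2-DMb1 (34153191-34160229, plus strand) had 9, 0 and 2 counts and 0, 12, 75 and 59 counts, or 11.6 and 7.85 CPM in those same null libraries. H2-DMb2 (34143229-34151553, plus strand) had 6, 1 and 0 counts and 1, 1, 61 and 11 counts, so that null replicate 3, with 9.42 CPM, held most of its reads. Where no read was counted, the level was under the 3-count floor of that library, which for wild-type replicates 2 and 3 and null replicate 1 was 0.492, 0.44 and 0.444 CPM. Null replicate 3 was at least 16.0-fold higher for H2-DMa and at least 23.5-fold higher for H2-DMb1 than each library at 0, and at least 21.4-fold higher for H2-DMb2 than wild-type replicate 3. Summed per length, the DM chains came to 5.45, 0.209 and 0.228 RPKM in the wild-type libraries and to 0.188, 2.73, 31.1 and 15.8 RPKM in the null libraries. H2-DMb1 and H2-DMb2 share 11.3% and 10.3% of their 100-base stretches. Exons of H2-DMa overlap Brd2 on the other strand over 360 bases, and reads there could belong to either gene in an unstranded library. Brd2 was at 445.8, 414.9 and 549.3 CPM in wild-type replicates 2 and 3 and null replicate 1. In these libraries H2-DMa had 0 counts, so no Brd2 read was counted as H2-DMa there.

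The DO genes went different ways. H2-Ob, the β chain (34238905-34245908, plus strand), was present in every line, at 60.9, 38.2 and 47.5 CPM in the wild-type libraries and 37.9, 26.5, 66.9 and 24.7 CPM in the null libraries. Its range over all lines was 2.70-fold (exact 95% interval 2.27 to 3.23). In wild-type replicates 2 and 3, H2-Ob at 14.3 and 17.8 RPKM stood above Cd74, at 5.10 and 7.77 RPKM, whereas in null replicate 3 it was 25.05 RPKM against 679 RPKM for Cd74. H2-Oa, the α chain (34092379-34095234, plus strand), had 1, 2 and 4 counts in the wild-type libraries and 1, 10, 17 and 28 counts in the null libraries. It reached 1.61, 2.63 and 3.72 CPM in null replicates 2, 3 and 4, all above the wild-type libraries, of which 1 held more than 3 counts. Over 321 bases, 22.8% of its exonic length, H2-Oa overlaps BC051537 on the opposite strand, and reads there cannot be told apart without strand. BC051537 was at most at 0.551 CPM in any library and at 0 CPM in null replicates 2 and 3. H2-Oa and H2-Ob would be needed in equal parts to form H2-O, but the per-length ratio of H2-Oa to H2-Ob stayed between 0.0314 and 0.383 in the 4 libraries with more than 3 counts of H2-Oa.

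Ordered by median RPKM over the 7 libraries, the genes ran from Cd74 (68.4) through H2-Ab1 (19.5), H2-Ob (14.3), H2-Aa (11.7) and H2-Eb1 (6.06) to H2-DMb1 (1.501), Ciita (1.16), H2-DMa (1.03), H2-Oa (0.559) and H2-DMb2 (0.209). Neighbours in that order overlapped in their ranges over libraries, for example 5.10 to 679 RPKM for Cd74 and 8.19 to 92.4 RPKM for H2-Ab1, so the order of neighbours is not fixed by these lines.

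The study compared Smchd1 null with wild-type lymphoma lines. Of the 12303 genes that passed the filter of at least 0.5 CPM in 3 or more libraries, 12% were called at an FDR under 0.05 by limma voom with sample weights (618 or 5.02% higher and 856 or 6.96% lower in the null lines). None of the 10 class II genes was called, although all 10 passed the filter. At an unadjusted p under 0.05 there were 5 with sample weights (Cd74, Ciita, H2-Aa, H2-Eb1 and H2-DMa), where 3890 of the 12303 genes were under it. There were 0 with voom alone (1388 of all genes), 1 by edgeR's quasi-likelihood test (1416) and 2 by DESeq2 (1578). Voom alone and edgeR each called 0.0975% of all genes, DESeq2 3.1%, and voom with a weight of their own for only the most distant library of each genotype, wild-type replicate 1 and null replicate 4 (block weights), 3.93%, with none of the 10 among them. The levels of all 10 overlapped between the groups, whereas 13.2% of the genes tested did not overlap.

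The point estimates were nonetheless mostly above 0, and their errors were large. The log2 fold change of null over wild-type was 3.69 for Cd74 (SE 1.14, FDR 0.0701, limma with sample weights), higher than every wild-type library in 3 of 4 null libraries. It was 4.07 for H2-Eb1 (SE 1.60, FDR 0.126), 3.40 for H2-Aa (SE 1.45, FDR 0.152), 3.25 for Ciita (SE 1.36, FDR 0.144) and 3.25 for H2-DMa (SE 1.404, FDR 0.155). H2-Ab1 at 0.49 and H2-Ob at -0.26 had 95% intervals of -0.86 to 1.84 and -0.87 to 0.35. The remaining genes, H2-DMb1, H2-DMb2 and H2-Oa, lay between 1.13 and 2.85 with FDRs of 0.284 to 0.387. For 9 of the 10 the estimate was above 0, against 48.83% of all genes tested, with a median of 3.05 against -0.01. Most of the 10 rose and fell together over the same libraries, so this count is a description only. Without sample weights, the 95% interval of each of the 10 included 0.

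**Figure D3:**
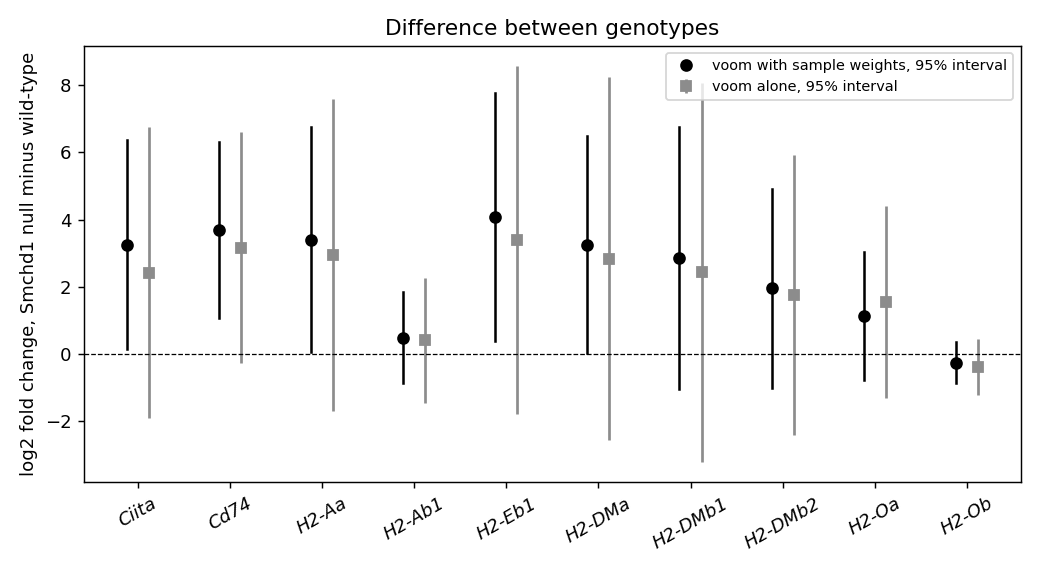
Log2 fold change of Smchd1 null over wild-type for each gene, with 95% intervals, from limma voom with sample weights (black circles) and voom alone (grey squares). The estimate for Cd74 is 3.69 with weights, and every interval without weights includes 0.

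The low wild-type libraries and the weights bear on these estimates. Wild-type replicates 2 and 3, both low for class II, had weights of 3.78 and 3.07, while wild-type replicate 1, with 287 CPM in sum, had 0.245. When replicates 2 and 3 were summed into 1 library, none of the 10 was called and 0.00825% of all genes were (Smchd1 alone), and the log2 fold change of Cd74 was 2.54. It was 2.17 without wild-type replicate 2 and 2.47 without wild-type replicate 3, and that of Ciita was 0.88 and 1.46, against 3.25 with all libraries. The same left-out libraries gave 2.07 and 1.84 for H2-Eb1 and 1.76 and 1.96 for H2-Aa. By edgeR, Ciita stood at 1.03 and H2-Eb1 at 1.96. Within batch 2, that is without wild-type replicate 1, the log2 fold change of Cd74 was 3.70 (limma FDR 0.0902), with none of the 10 called and 13.5% of all genes called. Leaving out null replicate 1, the null line with least class II RNA, brought 4 of the 10 under the threshold in limma with sample weights, where 4.15% of all genes were called. These were Cd74 (5.26, FDR 0.0361), H2-DMa (5.39, FDR 0.0447), H2-DMb1 (5.08, FDR 0.0484) and H2-Oa (2.23, FDR 0.0486).

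Across lines, the level of Ciita and that of the other class II genes were compared over the 7 libraries on the log2(CPM + 0.5) scale, with exact two-sided permutation tests and Benjamini-Hochberg adjustment over the 9 relations. The relation passed for 7 of the 9. The share of all genes tested that follow Ciita this closely was not computed, so this count is a description only. Pearson's r was 0.981 for H2-Eb1 (Spearman's rho 0.929), 0.971 for H2-Aa (rho 0.964) and 0.933 for Cd74 (rho 0.893), each with an exact permutation adjusted p of 0.00595 for r and 0.0184 for rho. It was 0.947 for H2-DMb1 and 0.881 for H2-Ab1 (exact permutation adjusted p = 0.00929 for each r) and 0.903 for H2-DMa and 0.85 for H2-DMb2 (exact permutation adjusted p = 0.0135 for each r). For H2-DMb2 the rank correlation did not pass (rho 0.786, exact permutation adjusted p = 0.0617). The DO chains did not pass, with r of 0.642 for H2-Oa and 0.235 for H2-Ob (exact permutation adjusted p = 0.13 and 0.587).

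With the libraries farthest from the median of Ciita left out (wild-type replicate 2 and null replicate 3), r over the remaining 5 was between 0.849 and 0.965 for the 7 genes, where the smallest exact adjusted p was 0.107. Within the 6 libraries of batch 2, r was 0.927 for H2-Oa (exact permutation adjusted p = 0.0266) and 0.0576 for H2-Ob, and lay between 0.855 and 0.995 for the 7 genes. On ranks, H2-Oa (rho 0.771), H2-Ab1 (rho 0.8286) and H2-DMb2 (rho 0.657) did not pass there (exact permutation adjusted p = 0.132, 0.0875 and 0.197), and H2-DMb1 (rho 0.899) lay at an exact permutation adjusted p of 0.05. Taking wild-type replicates 2 and 3 as 1 sample (n = 6), r was between 0.85 and 0.983 for the 7 genes, and that for H2-DMa no longer passed (exact permutation adjusted p = 0.0536). A correlation over lines does not say which gene sets the level of which.

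**Figure D4:**
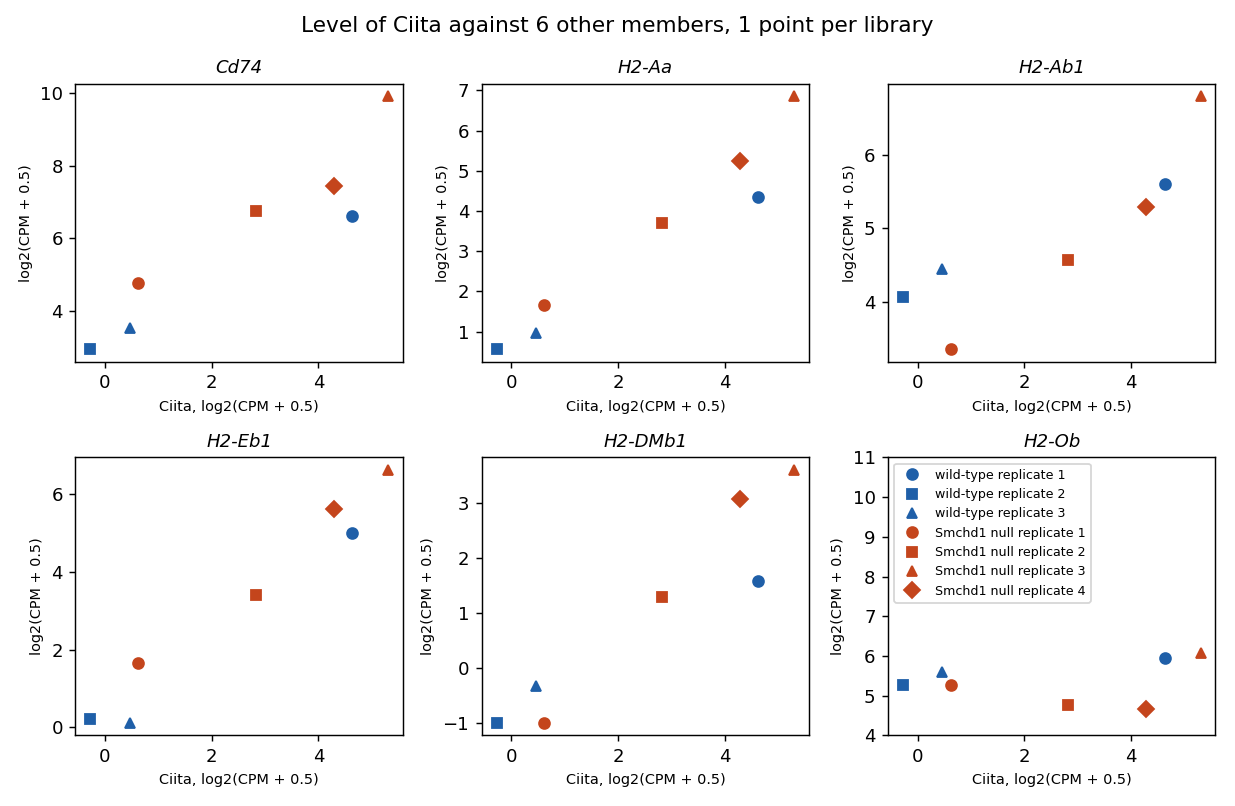
Level of Cd74, H2-Aa, H2-Ab1, H2-Eb1, H2-DMb1 and H2-Ob against that of Ciita in the 7 libraries, both as log2(CPM + 0.5), with 1 point per library. H2-Aa and H2-Eb1 rise along a line with Ciita (r 0.971 and 0.981), and H2-Ob stays level (r 0.235).

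Of the 10 genes, 8 lie within the class II region of chromosome 17, among genes of class I processing. The neighbours between them varied much less between lines than the classical chains did. The highest library was 2.95-fold above the lowest for Tap1 and 2.49-fold for Tap2, which form the peptide transporter, 2.03-fold for Psmb9 and 1.91-fold for Psmb8, immunoproteasome subunits, and 1.32-fold for Brd2, a bromodomain protein. H2-Eb2, a β chain gene beside H2-Eb1, ran between 6.25 CPM (null replicate 4) and 39.98 CPM (wild-type replicate 1), a range of 6.40-fold, and H2-Ea had 0 counts in all 7 libraries. Large changes between lines were thus interleaved with small ones along the region, and Cd74 on chromosome 18 and Ciita on chromosome 16 moved with the classical chains outside it.

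**Figure D5:**
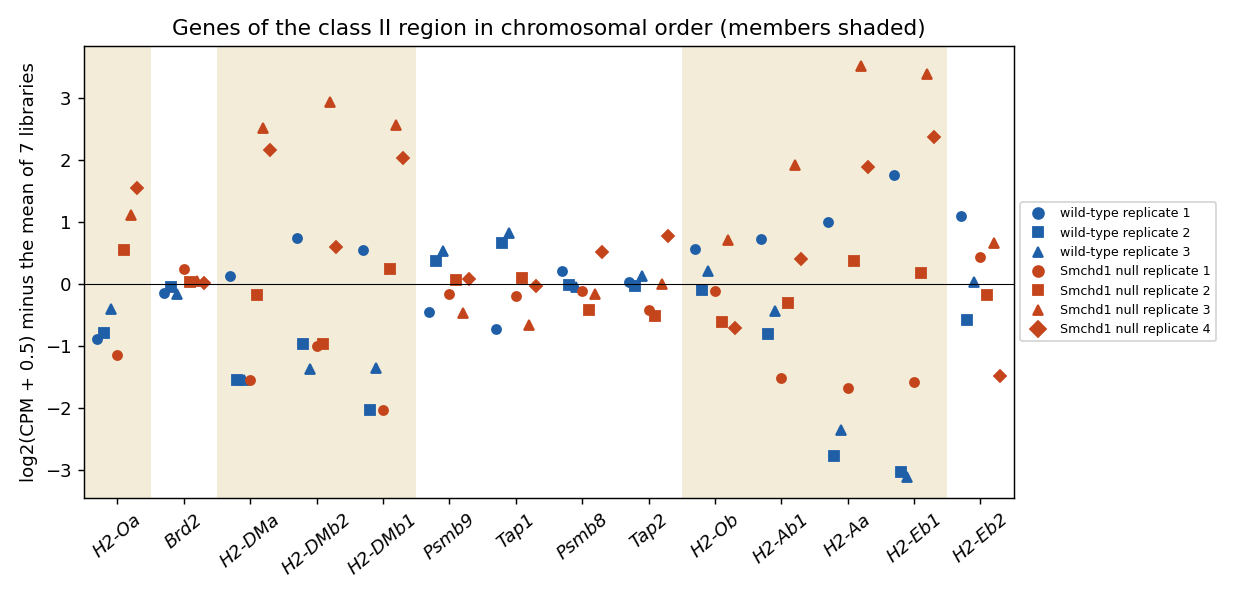
Level of the class II genes and their neighbours that passed the filter, in their order along chromosome 17. Each point is 1 library, as log2(CPM + 0.5) minus the mean of the 7 libraries, and class II genes of the 10 are shaded. The highest library is between 1.32-fold and 2.95-fold above the lowest for Tap1, Tap2, Psmb8, Psmb9 and Brd2, 117-fold for H2-Aa and 167-fold for H2-Eb1.

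The factors on which Ciita docks showed no call between genotypes. Of 7 genes of the RFX, CREB and NF-Y complexes, all were tested and none was called in limma with sample weights, and their median log2 fold change was -0.08. Rfx5, the DNA-binding subunit of the RFX complex, had 112, 43.0 and 45.3 CPM in the wild-type libraries and 22.4, 25.5, 47.6 and 22.3 CPM in the null libraries (log2 fold change -0.70, limma FDR 0.0877). It was present in the lines with the fewest Ciita reads. The other named members of that list were within 0.35 of 0 on the log2 scale (Rfxap -0.35, Nfyc 0.24, Nfyb 0.23). Among 10 regulators of Ciita, 9 were tested and 1 was called, Usf1, an E-box factor (log2 fold change -0.57, limma FDR 0.0334), whose wild-type values were 53.8, 93.8 and 91.2 CPM and whose null values ran from 52.1 to 67.1 CPM. Zbtb32, a repressor of Ciita, was at 295 CPM in null replicate 4 and at most 3.77 CPM elsewhere (log2 fold change -1.17 with sample weights, which weight that library down, and 0.77 with voom alone, not called in either). Irf8 was at 8.11 CPM in null replicate 4 and at least 70.9 CPM elsewhere (log2 fold change -0.29 with sample weights and -0.996 with voom alone). Irf2 stood at -0.26 with sample weights and -0.02 with voom alone, and neither gene was called.

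Of 10 genes for lysosomal processing of antigen and invariant chain, all were tested, 3 were called higher in the null lines, none was called lower, and the median log2 fold change was 0.05. Of all genes tested, 5.02% were called higher and 6.96% lower, and the counts of each list stand beside these shares. Ctsz, a lysosomal cathepsin, had 114, 93.7 and 112 CPM in the wild-type libraries and 185, 202, 183 and 146 CPM in the null libraries, without overlap (log2 fold change 0.88, limma FDR 0.00942). Ctsc, which activates granule proteases, had 84.1, 65.1 and 66.0 CPM against 152, 115, 87.0 and 223 CPM, also without overlap (0.89, limma FDR 0.0246). Ifi30, the thiol reductase that unfolds antigen, had 169, 21.3 and 15.8 CPM against 51.7, 74.5, 134 and 173 CPM (2.04, limma FDR 0.019), and here the groups overlapped, with wild-type replicate 1 again high. With voom alone none of these was called (FDR 0.157, 0.326 and 0.498). Ctsh, a cathepsin, was at 82.5 CPM in null replicate 4 and at most 22.0 CPM elsewhere, and was not called (-1.15 with sample weights, -0.05 with voom alone).

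Of 8 genes for trafficking and turnover of class II molecules 7 were tested and none was called (Rilp -0.52, Marchf8 -0.31, Rab7 0.24 and Ap1m1 0.19 on the log2 scale, median 0.08). Of 6 costimulatory and related genes, 4 were tested and none was called. Cd80 reached 37.6 CPM in null replicate 4 and at most 3.55 CPM elsewhere (log2 fold change 2.60, limma FDR 0.206), while Cd86 and Cd40 stood at 0.98 and 0.62, and Cd274, with 71.0 CPM in null replicate 4, at -0.07 with sample weights and 0.55 with voom alone.

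Of 13 class I presentation genes, all tested, 2 were called higher and 1 lower in the null lines, with a median log2 fold change of -0.34. Pdia3, a chaperone of the loading complex, and Psmb10, an immunoproteasome subunit, were higher (0.82 with limma FDR 0.0157, and 0.48 with limma FDR 0.0404), and Tap1 was lower (-0.87, limma FDR 0.0443). Nlrc5, the class I counterpart of Ciita, had a log2 fold change of -1.41 and was not called. Of the 7 other genes of the class II region that were tested, Tap1 was called lower and Btnl2 (-1.20), Psmb9 (-0.55) and H2-Eb2 (0.34, but -0.28 with voom alone) were not called. Neither voom alone nor edgeR called any of these list genes, nor did the fit with wild-type replicates 2 and 3 summed. Tap1 was not called without null replicate 4, and the class I list then held 1 call and, without wild-type replicate 1, 5.

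By likeness of pattern, the genes outside the 10 nearest to the mean standardised level of H2-Aa, H2-Ab1, H2-Eb1 and Cd74 were Asf1b (r = 0.977 over the 7 libraries), Cxxc1 (0.977), Niban3 (0.976), 5530601H04Rik (0.972) and Rbm45 (0.969). These are the extremes among the 11933 genes compared over 7 points and are given as a description. Of these only Niban3 moved over more than 2-fold, with 145, 55.9 and 55.6 CPM in the wild-type libraries and 71.7, 145, 240.5 and 171 CPM in the null libraries, a 4.33-fold range. Of the genes in the lists above, Ifi30 was nearest (r = 0.865, rank 159 of 11933).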

How the data were processed

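The authors sequenced poly(A) RNA with an unstranded TruSeq kit as 100-base reads (CASAVA 1.8.2), aligned them to mm10 with Subread and counted reads per gene with featureCounts. Wild-type replicate 1 was single-end (batch 1), the other 6 libraries paired-end (batch 2). The deposited values are raw counts per Entrez gene. The annotation and the strand and multi-mapping settings are not given in the sources used here. Entrez identifiers were matched to RefSeq symbols for 25275 of 27179 genes, which hold 98.24% of the counts.

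CPM is the count per 1000000 counts of the library total, and RPKM divides it by the deposited gene length in kilobases. Genes reaching 0.5 CPM in no fewer than 3 libraries were tested with TMM scaling and limma 3.58.1 (voom with sample quality weights, all 7 libraries, Benjamini-Hochberg FDR under 0.05), following the study's methods. Voom alone, block weights, edgeR 4.0.16 quasi-likelihood, DESeq2 1.42.0, other filters and left-out libraries were alternatives. The fits were tested on simulated data. The 10 genes and the lists were chosen with earlier results of these data known. Beside the 10 genes, the text names from each list the genes called and, where under 4 were called, those with the largest absolute log2 fold change up to 4, marker genes by list, and the 5 genes nearest in pattern. Other genes were named after their values were seen. Intervals and the floor of 3 counts cover counting error only. Nothing in the labels says that the lines came from unrelated mice, so p-values measure the spread between these lines.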

Additional observations from a re-analysis of the deposited data

How the results depend on the processing

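The number of genes called between genotypes depended on the fit, the number of class II genes called less so. Against 1474 genes with sample weights, 12 were called with voom alone, 484 with block weights, 507 with the lowest-weighted libraries removed, 12 by edgeR, 382 by DESeq2, 2771 at an FDR under 0.1 and 1 with wild-type replicates 2 and 3 summed. Leaving out 1 library at a time gave 1 to 1632 (1 without wild-type replicate 2 or 3, 331 without null replicate 2, 504 without null replicate 1, 961 without null replicate 3), and with voom alone, a choice made after seeing the data, 1 to 31 (31 without wild-type replicate 1, 1 without wild-type replicate 2 or 3, 10 without null replicate 4). Of the 10 class II genes, none was called with sample weights, 1 (Cd74) at an FDR under 0.1, where 22.5% of all genes were called, and 1 (Cd74, log2 fold change 3.61, limma FDR 0.0445) when at least 10 counts were asked of every library, where 3 of the 10 were tested and 15.9% of all genes were called. With 1 library left out, 0 to 4 were called. With 1 library left out, the log2 fold change of H2-Ab1 ranged from -0.16 to 1.57 and that of H2-Ob from -0.53 to 0.17. The log2 fold change of H2-Ab1 turned to -0.14 without wild-type replicate 2 and -0.16 without null replicate 3, that of H2-Ob to 0.17 without null replicate 2, and r between Ciita and H2-Ob to -0.11 without the 2 farthest libraries; the cause was not tested. Replicate numbers are shared by the groups, and the deviations of same-numbered libraries from their group means correlated at -0.15, 0.22 and -0.21. Deviations within a group cancel out, so these values cannot decide whether the numbers pair the libraries. With the replicate block, 225 genes were called and none of the 10 (smallest FDR 0.0729). All other log2 fold changes of the 10 kept their direction: 216 stayed on the same side of the threshold and 5 passed it. H2-DMb2 fell under the filter in some settings. Depth limits H2-DMa, H2-DMb1, H2-DMb2 and H2-Oa most, with 0 to 12 counts in at least 4 of the 7 libraries.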

Other observations

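The classical class I heavy chains ran opposite to the classical class II chains and Cd74 across lines, a pattern chosen after the values were seen. H2-K1 had 86.3, 445 and 523 CPM in the wild-type libraries and 332, 278, 133 and 116 CPM in the null libraries. H2-D1 had 101, 335 and 371 CPM and 292, 269, 113 and 101 CPM. The lines with most of both, wild-type replicates 2 and 3 and null replicate 1, were those with the least class II RNA. Correlations with the mean standardised level of H2-Aa, H2-Ab1, H2-Eb1 and Cd74 over the 7 libraries were -0.88 for H2-D1 and -0.85 for H2-K1. Counted from the most positive correlation down, they ranked 11783 and 11702 of 11933 genes, so other genes ran opposite more closely. The other class I presentation genes went both ways. Tap1 (-0.78), Psmb9 (-0.74), B2m (-0.72) and Nlrc5 (-0.67) had negative correlations. Psmb10 (0.76), Tapbp (0.60), Tap2 (0.30), Pdia3 (0.29) and Psmb8 (0.18) had positive ones, and those of Calr (-0.05) and Erap1 (-0.06) were slight. These are given as a description over libraries that differ in batch and depth, with wild-type replicates 2 and 3 much alike. Nlrc5, which activates class I transcription, had 42.5, 90.7 and 87.4 CPM and 58.6, 53.2, 16.4 and 1.73 CPM.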
